A study of Mus musculus with 12 samples.

Results

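The genes described here are 9 members of the circadian clock and its outputs, *Arntl*, *Clock*, *Npas2*, *Per1*, *Per2*, *Per3*, *Nr1d1*, *Ciart* and *Dbp*, together with *Noct*, which encodes nocturnin. They were picked by name, and each of the 10 names matched 1 of the 54658 gene names counted in the left atrium (LA). The filter used for testing, more than 1 CPM (a count scaled to a fixed library total) in at least 6 libraries, kept 13541 genes and 9 of the 10; *Ciart* fell below it.

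The LA came from 6 iNICD mice and 6 littermate controls of mixed background. Controls carried αMHC-rtTA alone, a transgene that makes the reverse tetracycline transactivator in cardiomyocytes, and iNICD mice carried αMHC-rtTA with tetO_NICD (amHC-rtTA;TetO-NICD in the sample labels), which makes the intracellular domain of Notch1 in those cells once doxycycline is given. Both groups ate doxycycline chow for 3 weeks, starting at 2 to 3 months of age, and were sampled without a washout. Each LA was its own library, from 4 female and 2 male controls and from 3 female and 3 male iNICD mice. The time of day at which tissue was taken is not given in the labels.

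Gene counts summed to 21432632 to 27182038 per library. The transgene was checked through *Notch1*, which lay at 108 to 131 normalized CPM (CPM scaled by the TMM factors of edgeR) in controls and at 2975 to 4077 in iNICD libraries. The labelled sex matched sex-linked transcripts in 12 of 12 libraries. Cardiomyocyte markers (4 of 4 found) summed to 45727 to 49464 normalized CPM in controls and 41410 to 47691 in iNICD libraries, and atrial markers (3 of 3) to 12337 to 14449 and 7212 to 9999.9. At an edgeR adjusted p under 0.05, 3 of the 3 atrial and 1 of the 4 cardiomyocyte markers were lower in iNICD LA, as were 1.34% of all tested genes. The ventricular pair summed to at most 4.51 in any library. Control replicate 5 stood apart on the first principal component (32.7% of the variance). Control replicate 6 and iNICD replicate 6 stood apart in the clock genes themselves, as described below, so the main values of the clock genes that moved with them are also given without them.

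The circadian clock is a transcriptional feedback loop that most cells run over a day. BMAL1, the product of *Arntl*, pairs with CLOCK or NPAS2 and binds E-boxes, where it activates the *Per*, *Cry*, *Nr1d1*, *Dbp* and *Ciart* genes. PER and CRY proteins then repress the pair, REV-ERBα (from *Nr1d1*) represses *Arntl* through ROR response elements (ROREs), and DBP activates genes that hold D-boxes, so *Arntl* mRNA peaks at about the time of day when *Dbp* and *Per3* mRNA are low. *Noct* mRNA is rhythmic in several tissues and its product removes a phosphate from NADP and NADPH.

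The elements through which the loop acts are shown first, as far as they occur near the start sites of these genes, because they are the sequences that clock proteins are known to bind. RefSeq promoter sequences (GRCm38.p6, 250 bases before to 50 after a start site) were found for 9 of the 10 genes; there was no entry for *Per2*. They were searched on both strands for the E-box CACGTG, the D-boxes TTATGTAA and TTACGTAA, the RORE, the cAMP response element TGACGTCA and the RBPJ site TGTGGGAA. The E-box was held by 7.15% of all 32851 promoter windows, TTATGTAA by 0.938%, TTACGTAA by 0.119%, the RORE by 0.384%, TGACGTCA by 1.79% and TGTGGGAA by 1.86%. The stretches below run 5′ to 3′ on the strand of the gene, hold no annotated exon, and have the matches in capitals: 3 E-boxes before *Ciart* (chr3:95882252-95882478, minus strand), 1 before the first of 2 RefSeq starts of *Per1* (chr11:69098699-69098947, plus strand, within the gene as GENCODE annotates it, in an intron of its longer form) and 2 D-boxes TTATGTAA before *Per3* (chr4:151044666-151044915, minus strand). The window of *Noct* (chr3:51224197-51224446, plus strand), the 1 gene that differed between the groups, is shown beside them; none of the 6 elements was found in it.
Ciart: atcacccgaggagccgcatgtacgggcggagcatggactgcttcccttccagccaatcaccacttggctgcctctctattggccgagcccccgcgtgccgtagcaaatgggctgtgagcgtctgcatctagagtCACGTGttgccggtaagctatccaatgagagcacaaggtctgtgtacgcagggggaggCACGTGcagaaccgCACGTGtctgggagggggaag
Per1: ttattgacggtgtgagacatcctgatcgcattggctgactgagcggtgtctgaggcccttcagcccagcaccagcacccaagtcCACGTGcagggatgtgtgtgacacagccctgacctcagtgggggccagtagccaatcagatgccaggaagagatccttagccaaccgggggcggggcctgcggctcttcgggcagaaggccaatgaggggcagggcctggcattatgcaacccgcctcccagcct
Per3: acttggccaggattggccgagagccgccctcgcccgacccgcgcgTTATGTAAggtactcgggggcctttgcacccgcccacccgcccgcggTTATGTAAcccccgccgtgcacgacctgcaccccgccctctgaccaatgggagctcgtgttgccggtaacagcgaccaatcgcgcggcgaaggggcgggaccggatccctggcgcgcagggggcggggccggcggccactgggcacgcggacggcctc
Noct: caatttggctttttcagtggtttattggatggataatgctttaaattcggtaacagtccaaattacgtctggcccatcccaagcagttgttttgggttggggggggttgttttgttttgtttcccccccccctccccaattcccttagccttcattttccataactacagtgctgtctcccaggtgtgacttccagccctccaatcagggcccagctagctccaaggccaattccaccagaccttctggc

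In *Arntl* the RORE lay 27 to 37 bases after the second of its 2 annotated starts (chr7:113207528-113207556, plus strand), and is shown with its flanks because it is the element on which REV-ERBα acts.
Arntl: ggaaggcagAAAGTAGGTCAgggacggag

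None of the 6 elements was found in the window of the second *Per1* start or in those of *Clock*, *Npas2*, *Nr1d1* and *Dbp*. A match is a description of letters and not a binding site, and no binding was measured here.

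The levels set the scale for the comparisons. Per kilobase of annotated exon, *Nr1d1* had the highest control median, 31.4 normalized CPM per kilobase, followed by *Per1* at 20.7. *Per2* (6.27), *Clock* (5.98), *Arntl* (5.85), *Npas2* (4.26), *Noct* (4.00), *Dbp* (3.19) and *Per3* (2.43) came next, and *Ciart* was lowest at 0.361. Among neighbours in this order only *Per1* and *Per2* had control ranges that did not overlap. In iNICD libraries *Nr1d1* (37.2) and *Per1* (18.2) again had the highest medians, *Noct* stood ninth at 0.672 normalized CPM per kilobase, below *Per3* (2.14) and above *Ciart* (0.270), and the ranges of all neighbours overlapped.

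Of the 9 genes tested, 1 differed between the groups at an adjusted p-value under 0.05, *Noct*, which was lower in iNICD LA; over all tested genes 4.12% differed in either direction, 2.78% being higher and 1.34% lower (quasi-likelihood test of edgeR, Benjamini-Hochberg adjustment). The clock genes themselves did not pass. None of the other 8 tested genes had an unadjusted p under 0.05, as 17.4% of all tested genes had, and none was called by DESeq2 or by the exact test of edgeR. *Noct* was also the only one of the 10 genes whose groups did not overlap, a pattern shown by 3.83% of all tested genes.

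**Figure D1:**
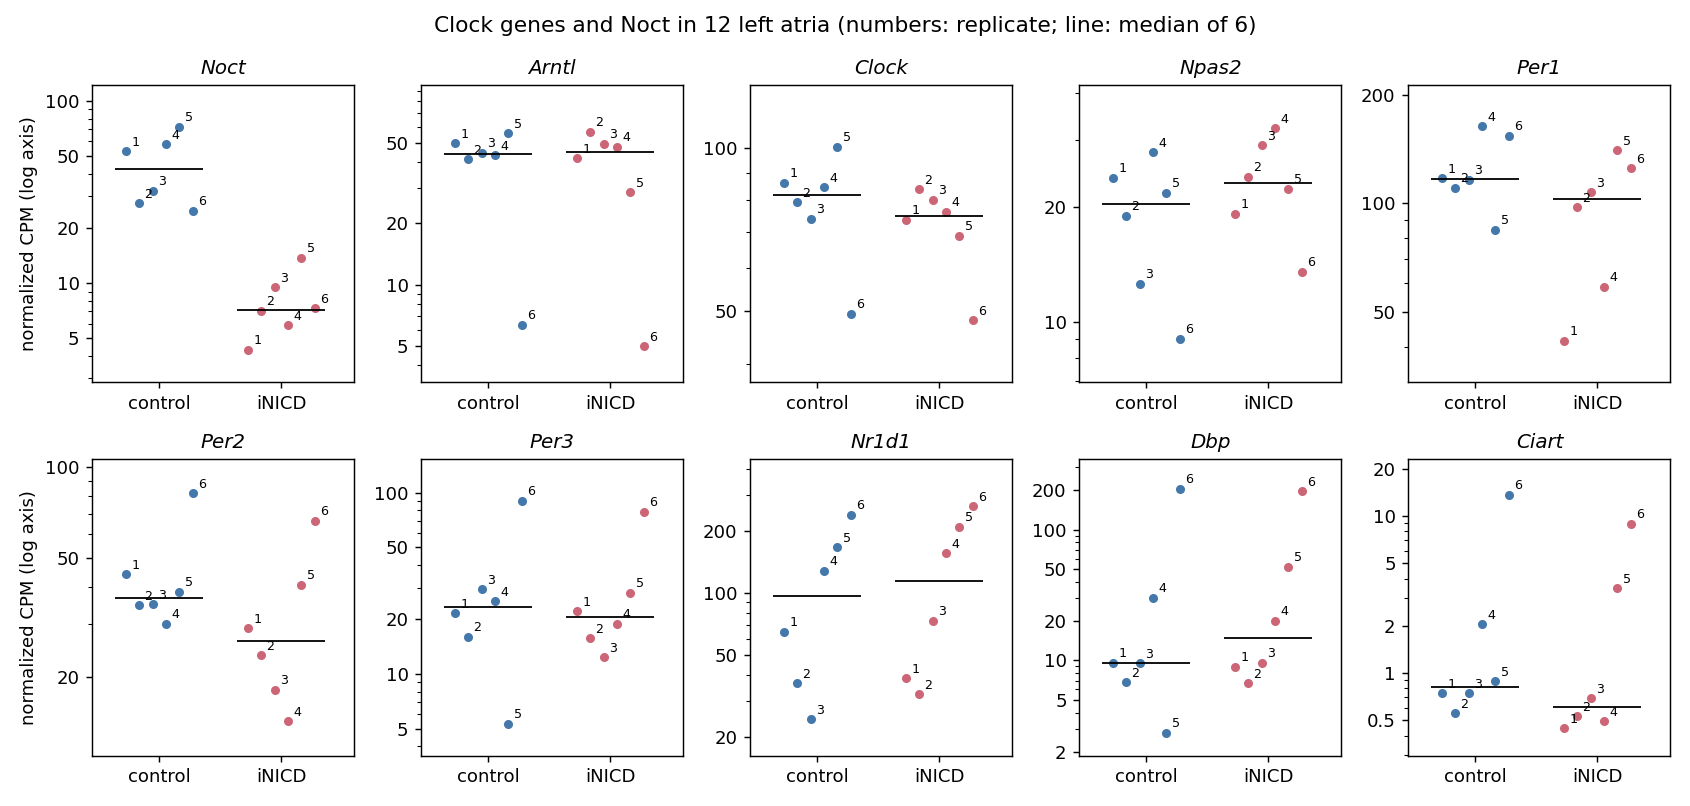
Normalized CPM of the 10 genes in each of the 12 LA libraries (log axes, each with its own range); points are libraries numbered by replicate, blue for control and red for iNICD, and the line is the median of 6. The 6 iNICD values of *Noct* lie below the 6 control values, while in *Arntl* and *Dbp* replicate 6 of each group lies away from the other 5.

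*Noct* (ENSMUSG00000023087.15, chromosome 3, 51224447 to 51251644, plus strand, GRCm38) was counted at 53.0, 27.5, 32.1, 58.0, 72.1 and 24.9 normalized CPM in control replicates 1 to 6. In iNICD replicates 1 to 6 it was at 4.31, 7.06, 9.53, 5.87, 13.8 and 7.26 normalized CPM. The highest iNICD library, replicate 5, thus stayed below the lowest control, replicate 6. The group means were 44.6 ± 19.2 and 7.98 ± 3.35 normalized CPM (SD, n = 6 each), a difference of -2.48 ± 0.33 (standard error, SE) on the log2 scale (edgeR adjusted p = 6.67e-04). A two-sided exact permutation test of all arrangements of the libraries gave p = 0.00216, the smallest it can give with 6 per group. In every fit that left out 1 library, *Noct* was called, with log2 fold changes of -2.71 to -2.29. Females alone gave -2.61 (SE 0.36, edgeR adjusted p = 0.00941) and males alone -2.45 (SE 0.57), which did not pass (edgeR adjusted p = 0.522), in a comparison of 2 control with 3 iNICD libraries in which 8 genes were called in all. The RNA is from whole LA, in which fewer cells that express a gene and less of its RNA per cell cannot be told apart.

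*Arntl* encodes the obligate positive partner of the loop. It lay at 49.8, 41.4, 44.6, 43.4 and 55.8 normalized CPM in control replicates 1 to 5 and at 6.34 in control replicate 6. In iNICD replicates 1 to 4 it lay at 41.8, 56.7, 49.6 and 47.8 normalized CPM, in replicate 5 at 28.5 and in replicate 6 at 4.96. One library of each group was therefore far below the rest, and the other 10 overlapped between the groups. The log2 fold change was -0.07 ± 0.51 (SE; edgeR adjusted p = 0.959).

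*Clock*, the DNA-binding partner, had a lowest, median and highest value of 49.5, 82.0 and 100.4 normalized CPM in controls and 48.2, 75.0 and 84.0 in iNICD libraries. *Npas2*, which can stand in for *Clock*, had 9.02, 20.4 and 27.9 normalized CPM in controls and 13.5, 23.2 and 32.3 in iNICD libraries. In both genes and both groups the lowest library was again replicate 6. The log2 fold change was -0.14 (SE 0.16) for *Clock* and 0.30 (SE 0.27) for *Npas2*, with edgeR adjusted p-values of 0.701 and 0.598.

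The *Per* genes encode the repressors that carry CRY proteins to the BMAL1 pair. *Per1*, which is also induced by acute signals, had a lowest, median and highest value of 84.5, 116.7 and 163.6 normalized CPM in controls and 41.6, 102.4 and 140.3 in iNICD libraries; its log2 fold change was -0.39 (SE 0.27, edgeR adjusted p = 0.484). *Per2* had 30.2, 36.7 and 82.0 normalized CPM in controls and 14.3, 26.4 and 66.3 in iNICD libraries. In 4 of the 6 iNICD libraries *Per2* was below all controls, while iNICD replicates 5 and 6 were within the control range. Its log2 fold change was -0.46 (SE 0.36, edgeR adjusted p = 0.541). Without both replicates 6 and iNICD replicate 5, a set chosen after seeing the data, it was -0.78 (SE 0.20, edgeR adjusted p = 0.0809), which did not pass either. *Per3* had 5.34, 23.4 and 90.4 normalized CPM in controls and 12.4, 20.6 and 78.4 in iNICD libraries, and a log2 fold change of -0.09 (SE 0.59, edgeR adjusted p = 0.954).

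*Nr1d1* encodes REV-ERBα, the repressor of *Arntl*. Its lowest, median and highest values were 24.5, 96.5 and 239.5 normalized CPM in controls and 32.3, 114.4 and 263.3 in iNICD libraries, so that each group spanned a wide range and the ranges nearly coincided. The log2 fold change was 0.23 (SE 0.62, edgeR adjusted p = 0.881). Of its exon bases, 8.55% are shared with *Thra* on the opposite strand, and reads there cannot be assigned here: the libraries were stranded by the study's methods, but the strand setting of the counting is not given in the sources used here. *Thra* spanned 73.7 to 187.7 normalized CPM, and was at 159.7 in control replicate 6 and 187.7 in iNICD replicate 6.

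*Ciart*, a repressor that binds BMAL1, was scarcely counted in most libraries. It was at 0.553 to 2.05 normalized CPM in control replicates 1 to 5 and at 13.7 in control replicate 6; in iNICD replicates 1 to 4 it was at 0.447 to 0.693, in replicate 5 at 3.47 and in replicate 6 at 8.94. No difference between the groups was detected (two-sided exact permutation p = 0.732, n = 6 per group), and without the filter on low counts its log2 fold change was -0.34 (SE 0.89, edgeR adjusted p = 0.89).

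*Dbp* encodes an output factor that acts through D-boxes, and had the largest SD of the 10 genes on the log2 scale. It was at 9.60, 6.83, 9.52, 30.2 and 2.81 normalized CPM in control replicates 1 to 5 and at 204.5 in control replicate 6. In iNICD replicates 1 to 6 it was at 8.94, 6.70, 9.60, 20.1, 51.9 and 196.2 normalized CPM. The same library number was highest in each group, and *Dbp* there was at a level not reached in any of the other 10 libraries. The log2 fold change was 0.16 ± 1.09 (SE; edgeR adjusted p = 0.96). *Dbp* shares 18.0% of its exon bases with *Sphk2* on the opposite strand. *Sphk2* spanned 23.5 to 38.5 normalized CPM, and was at 23.5 in control replicate 6 and 26.9 in iNICD replicate 6. The part of reads from *Sphk2* in the *Dbp* counts was not tested.

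The fold changes of several clock genes moved with the replicates 6, and none of those named next was called in these fits. The log2 fold change of *Dbp* was 2.05 without control replicate 6, -1.17 without iNICD replicate 6 and 0.72 without both. That of *Per3* was 0.58, -0.68 and -0.00 in the same order, and that of *Nr1d1* 0.61, -0.11 and 0.28. For *Per2* the values were -0.19, -0.81 and -0.54, and for *Arntl* -0.30, 0.16 and -0.07. For *Clock* they were -0.24, -0.04 and -0.15, and for *Npas2* 0.16, 0.42 and 0.27, so both kept their sign, as did *Per1* at -0.32, -0.48 and -0.41.

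**Figure D2:**
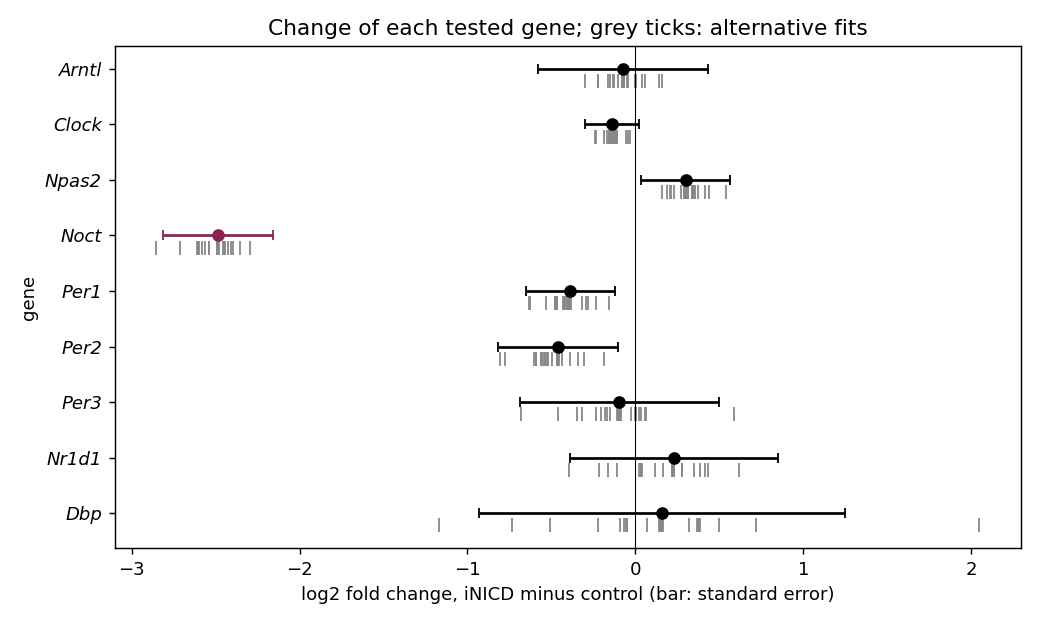
Log2 fold change (iNICD minus control) of the 9 tested genes, with bars of 1 standard error; grey ticks are the values under the alternative fits. *Noct* lies at -2.48 and stays at -2.29 or lower in all of them, whereas the ticks of *Dbp* run from -1.17 to 2.05.

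The spread between libraries of 1 group was measured as the SD of log2 CPM less the group mean. It was 2.01 for *Dbp*, 1.69 for *Ciart*, 1.29 for *Nr1d1*, 1.25 for *Arntl* and 1.14 for *Per3*, against a median of 0.217 over all tested genes; these 5 were within the range of the 5.00% of tested genes with the largest SD. Few tested genes varied more than *Arntl* (0.967%), *Nr1d1* (0.864%) or *Dbp* (0.177%). *Clock* had an SD of 0.320, which 29.7% of tested genes exceeded, and *Noct* one of 0.604, which 7.95% exceeded. The SD of *Arntl* without both replicates 6 was 0.295, which 33.4% of tested genes exceeded, while those of *Dbp* (1.20), *Nr1d1* (1.18) and *Noct* (0.615) were exceeded by 1.02%, 1.07% and 7.85%. That of *Clock* was then 0.140, exceeded by 74.0% of tested genes, that of *Per3* 0.760 (4.54%) and that of *Ciart* 0.939 (2.42%).

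Several of the genes shared their extreme libraries. In both groups replicate 6 was the lowest library for *Arntl*, *Clock* and *Npas2* and the highest for *Per2*, *Per3*, *Nr1d1*, *Dbp* and *Ciart*. For *Per1* it lay within the range of the other 5 libraries in both groups. For *Noct* it was the lowest control, at 24.9 against 27.5 to 72.1 normalized CPM, and lay inside the range of the other iNICD libraries, at 7.26 against 4.31 to 13.8. iNICD replicate 5 was second to replicate 6 of its group in low *Arntl* and in high *Dbp*, *Ciart*, *Per2*, *Per3* and *Nr1d1*.

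**Figure D3:**
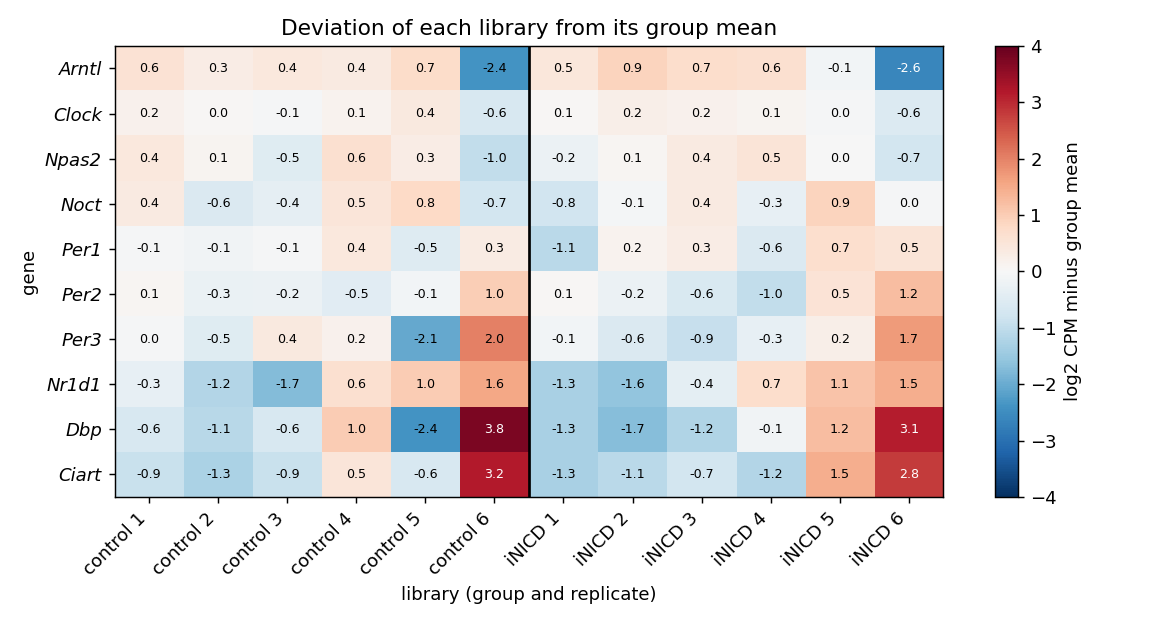
Deviation of each library from its group mean (log2 CPM, colour scale from -4 to 4) for the 10 genes, controls left of the black line and iNICD right of it. Replicate 6 of both groups is blue for *Arntl*, *Clock* and *Npas2* and red for *Per2*, *Per3*, *Nr1d1*, *Dbp* and *Ciart*; *Noct* shows no such block.

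These 3 libraries (both replicates 6 and iNICD replicate 5) were from males. Control replicate 5 and iNICD replicate 4, also from males, had *Arntl* at 55.8 and 47.8 normalized CPM, within the 41.4 to 56.7 of the 7 female libraries. *Nr1d1* was the 1 gene of the 10 in which the sexes did not overlap, at 155.5 to 263.3 normalized CPM in the 5 male libraries and 24.5 to 128.0 in the 7 female ones, a pattern shown by 1.38% of all tested genes. With sex as a covariate the log2 fold change between genotypes was -0.21 (SE 0.37) for *Nr1d1* and -0.51 (SE 0.79) for *Dbp*, opposite in sign to the values above and not called (edgeR adjusted p = 0.779 and 0.753). With the sex means removed besides the group means, the r of *Arntl* with *Dbp* described below was -0.862. Summed smooth muscle markers (3 of 3 found) were lowest in the 2 replicates 6, at 54.1 and 54.7 normalized CPM, against 54.9 to 157.3 in the other 10, and summed cardiomyocyte markers were highest there within each group. Their part in the result was not tested. The collection time was not recorded in the labels, so its part was not tested either.

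Across the 12 libraries, with group means removed, 20 of the 45 pairs among the 10 genes (44.4%) had an absolute Pearson r of at least 0.7, against 10% of all pairs of tested genes; 10 were positive and 10 negative. Over the 12 libraries r was positive among *Arntl*, *Clock* and *Npas2*, positive among *Per2*, *Per3*, *Dbp* and *Ciart*, and negative between the first set and the second. Without both replicates 6, 8 of the 45 pairs reached 0.7, of which 5 were among the 20 and 3 were not. Of all pairs of tested genes 13.3% then did, so the share among the 10 genes was much nearer to that of all pairs. Without both replicates 6, 9 of the 45 pairs changed sign, among them *Npas2* with *Dbp* (-0.598 to 0.195) and with *Ciart* (-0.635 to 0.144). *Arntl* with *Npas2* was then at 0.286 and *Per2* with *Dbp* at 0.128. P-values for pairs are two-sided, from 100000 permutations of libraries within their group, and adjusted values are over the 45 pairs.

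*Arntl* and *Clock* had r = 0.957 (permutation p = 2e-05, adjusted 9e-04) and Spearman's rho = 0.895 (permutation p = 0.00015). Without the 2 libraries farthest from the median of *Arntl*, which are both replicates 6, r was 0.773. Within controls r was 0.945 (exact permutation p = 0.00972) and within iNICD libraries 0.992 (exact permutation p = 0.00139), n = 6 each.

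*Arntl* and *Dbp*, the positive factor and the output, had r = -0.902 (permutation p = 0.00041, adjusted 0.00369) and rho = -0.818 (permutation p = 0.00303). Without both replicates 6 r was -0.736, and without iNICD replicate 5 as well it was -0.521, so that its size rested in part on these 3 libraries. Within controls r was -0.896 (exact permutation p = 0.0222) and within iNICD libraries -0.921 (exact permutation p = 0.0111).

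*Clock* and *Per3* had r = -0.937 (permutation p = 0.00017, adjusted 0.00255) and rho = -0.867 (permutation p = 0.00113), and r stayed at -0.850 without both replicates 6. *Per3* and *Dbp* had r = 0.913 (permutation p = 0.00015, adjusted 0.00255) and rho = 0.853 (permutation p = 0.00122). Without the 2 libraries farthest from the median of *Per3*, control replicates 5 and 6, this r was 0.869, and without both replicates 6 it was 0.736. *Arntl* and *Per2* had r = -0.862 (permutation p = 0.00351, adjusted 0.0144), but rho = -0.532 (permutation p = 0.112) and an r of -0.552 without both replicates 6, so this relation rested on those libraries.

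**Figure D4:**
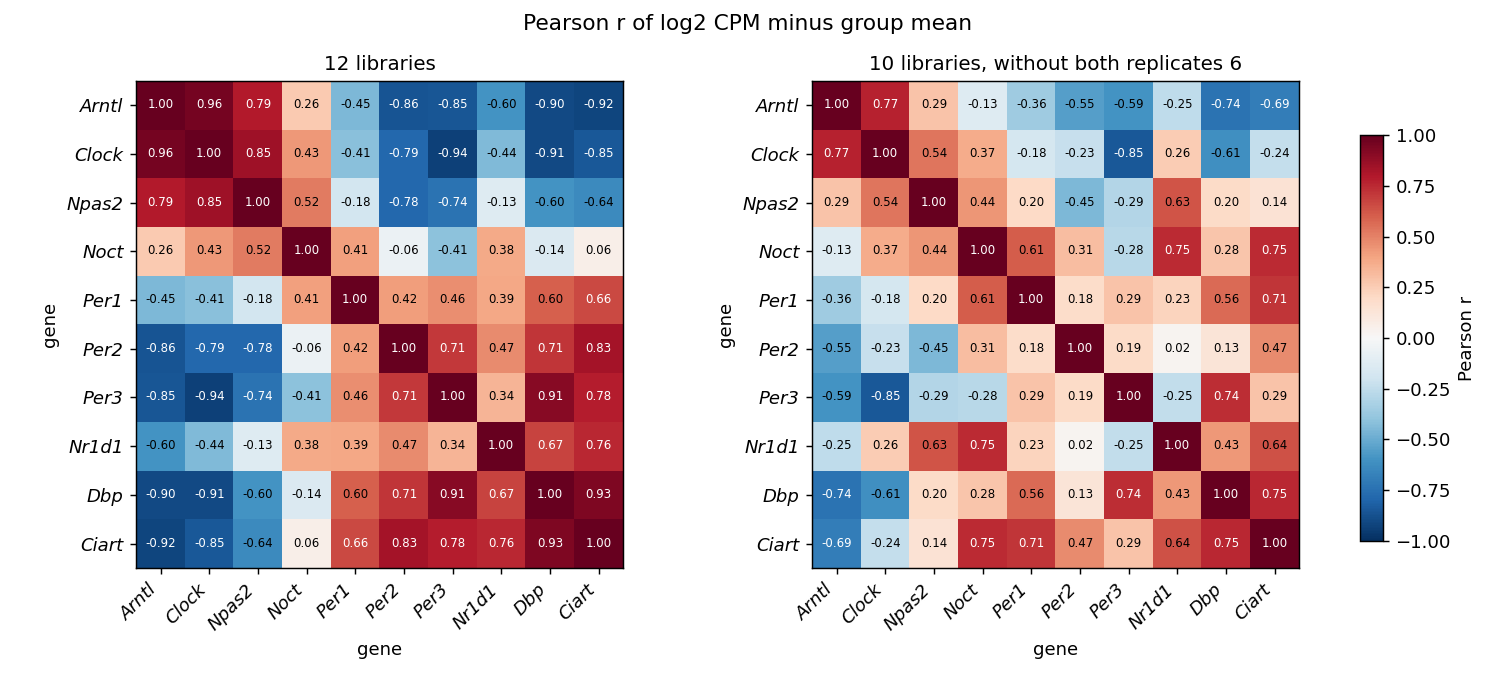
Pearson r of log2 CPM less the group mean for each pair of the 10 genes (colour scale from -1 to 1), over 12 libraries on the left and over 10, without both replicates 6, on the right. The blocks of high positive and negative r on the left, 20 pairs at 0.7 or beyond, are fewer on the right, where 8 pairs reach 0.7, 5 of them among the 20.

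No pair of *Noct* with another of the 10 genes reached an absolute r of 0.7 over the 12 libraries with group means removed. With *Per1*, *Noct* had an r of 0.409. Once the means of each replicate number were removed as well, *Noct* had 0.753 with *Per1*, from only 6 differences between same-numbered libraries. Its r with *Arntl* was 0.264 (permutation p = 0.417) and with *Dbp* -0.144 (permutation p = 0.677), and rho was 0.161 (permutation p = 0.63) and 0.0280 (permutation p = 0.941). Its highest absolute r was with *Npas2*, 0.517 (permutation p = 0.114, adjusted 0.183), and no pair with *Noct* passed at an adjusted 0.05. Its r without both replicates 6 was 0.746 with *Nr1d1* and 0.747 with *Ciart*. Within the 6 iNICD libraries its r with *Per1* was 0.876 (exact permutation p = 0.0167), and within controls -0.340 (exact permutation p = 0.483); with *Clock* it was 0.807 within controls (exact permutation p = 0.0167) and -0.0630 within iNICD libraries (exact permutation p = 0.9). These within-group values were not adjusted over the pairs, and the groups were not tested against each other.

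**Figure D5:**
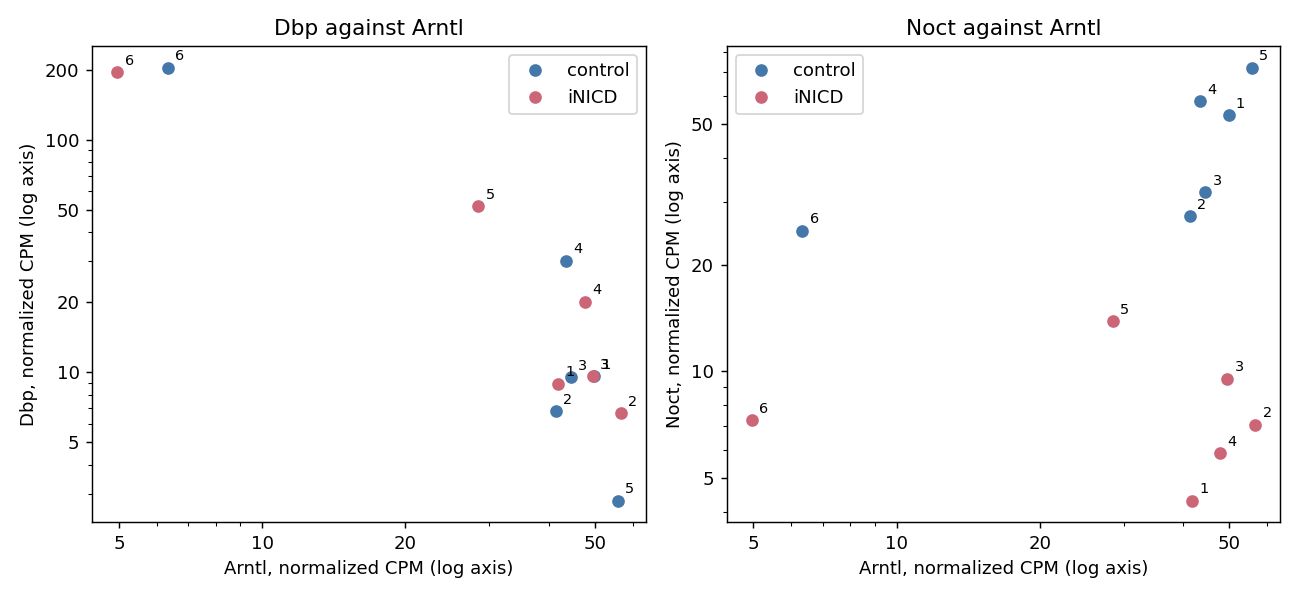
*Dbp* (left) and *Noct* (right) against *Arntl* in normalized CPM, log axes, with 12 LA libraries numbered by replicate. *Dbp* is high where *Arntl* is low in both groups (r = -0.902), and *Noct* is lower in each iNICD library than in any control, including replicates 6, where *Arntl* is lowest.

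The genes outside the 10 whose pattern over the 12 libraries was most like that of *Noct*, by r of log2 CPM less the group mean, were *Jmjd6* (0.959), *Rhoj* (0.940), *Hspa1l* (0.912), *Csrnp1* (0.907) and *Egfr* (0.895). The most opposed were *1500011B03Rik* (-0.965), *Dsp* (-0.939), *Herc2* (-0.930), *Cyp4f16* (-0.924) and *9930014A18Rik* (-0.921). Without both replicates 6 these 10 values changed by little, *Jmjd6* for instance to 0.971 and *Dsp* to -0.926.

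Around *Arntl* the closest were *Leo1* (0.991), *Cmtm6* (0.963), *Alg9* (0.927), *Phc2* (0.927) and *Mamld1* (0.911), and the most opposed *Kcnip3* (-0.960), *Fam76a* (-0.949), *Aifm2* (-0.946), *Stk35* (-0.944) and *Usp2* (-0.941), the last a deubiquitinase known as a clock output. Without both replicates 6, *Leo1* was at 0.856 and *Aifm2* at -0.842, but *Kcnip3* fell to -0.393 and *Alg9* to 0.562. Around *Dbp* the closest were *Narf* (0.978), *Nr1d2* (0.970), which encodes REV-ERBβ, *Tcap* (0.963), *Zfp346* (0.953) and *Ccbe1* (0.950), and the most opposed *Mamld1* (-0.961), *Tm4sf1* (-0.960), *Hnrnph1* (-0.945), *Cmtm6* (-0.938) and *Sept11* (-0.934). *Narf* (0.947) and *Nr1d2* (0.966) kept nearly the same r with *Dbp* without both replicates 6. All of these values are picked from 13541 genes over few libraries that share those extreme ones, and are given as a description.

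The rest of the clock pathway was read from lists of known genes. Of 10 other loop genes, 9 were tested and none was called by edgeR's quasi-likelihood test, with 1 at an unadjusted p under 0.05 (17.4% of all tested genes) and 1 called by DESeq2 and by the exact test of edgeR (7.84% and 5.69% of all tested genes). The list's median log2 fold change was -0.26, against -0.01 over all tested genes. Leaving out 1 library moved this median to between -0.39 (without iNICD replicate 6) and -0.05 (without control replicate 6). The list ran from *Cry1*, at 33.4 ± 15.8 normalized CPM (SD, n = 6) in controls and 23.6 ± 10.1 in iNICD LA (log2 fold change -0.50), to *Nr1d2*, at 76.2 ± 71.9 and 90.5 ± 63.7 (log2 fold change 0.25). The log2 fold change of *Nr1d2* was 0.88 without control replicate 6 and -0.15 without iNICD replicate 6. That of *Cry1* was -0.66 and -0.40 in the same order.

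Of 7 genes for the turnover of clock proteins, 6 were tested and none was called, with 3 at an unadjusted p under 0.05 (17.4% of all tested genes) and none called by DESeq2 or the exact test of edgeR; log2 fold changes ran from -0.08 (*Fbxw11*) to 0.26 (*Csnk1e*, casein kinase 1ε, SE 0.08, edgeR adjusted p = 0.114). *Csnk1e* was called once control replicate 5 was left out (edgeR adjusted p = 0.0179), and the log2 fold change of *Fbxw11* was then 0.04. All 3 output factors related to *Dbp* or opposing it were tested and none was called by any of the 3 tests, nor at an unadjusted p under 0.05, from *Nfil3* (-0.70, SE 0.51) to *Hlf* (0.13, SE 0.43). *Hlf* was at 0.54 without control replicate 6 and -0.24 without iNICD replicate 6, and *Nfil3* at -0.93 and -0.50. Of 8 further output genes all were tested and none was called by any of the 3 tests, with 1 at an unadjusted p under 0.05 (17.4% of all tested genes), from *Pdk4* (-1.16, SE 0.65) to *Klf9* (0.15, SE 0.15). *Pdk4* was at 2497 normalized CPM in control replicate 5 and at 174.5 to 512.5 in the other controls, and without that library its log2 fold change was -0.03.

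Several of these genes varied together with the clock genes above. *Nfil3*, which competes with DBP for D-boxes, had r = 0.911 with *Arntl* and -0.926 with *Dbp* over the 12 libraries, and 0.573 and -0.722 without both replicates 6. *Tef* and *Hlf*, close relatives of *Dbp*, had r = 0.897 and 0.893 with it, and 0.689 and 0.707 without those 2 libraries. *Cry2* went from 0.910 to 0.656 with *Dbp* in the same way, and *Usp2* from 0.942 to 0.851. *Cry1* had r = -0.872 with *Dbp*, opposite in sign to *Cry2*, and -0.877 without both replicates 6. In control replicate 6 and iNICD replicate 6 *Nfil3* was at 2.64 and 2.87 normalized CPM, against 14.1 to 28.7 in the other controls and 7.10 to 21.2 in the other iNICD libraries.

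For *Noct*, the related nucleases and the enzymes that make NADP were listed, and all 7 were tested. None was called by edgeR's quasi-likelihood test, DESeq2 or the exact test, and none had an unadjusted p under 0.05; log2 fold changes ran from -0.22 (*Pde12*, SE 0.11) to 0.08 (*Angel2*, SE 0.07), with a median of -0.01.

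Genes induced by acute signals were listed because *Noct* and *Per1* are known to respond to such signals. Of 11 immediate early genes, all tested, 2 fell in iNICD LA and none rose (1.34% of all tested genes were lower), with 10 at an unadjusted p under 0.05 (17.4% of all tested genes) and a median log2 fold change of -1.61. The count of 2 became 0 when any of iNICD replicates 1, 2, 3, 4 and 6 was left out, 1 without control replicate 4, 6 without control replicate 6 and 0 in males alone. The median stayed between -1.80 and -1.24 over the 12 fits without 1 library. *Fos* went from 80.0 ± 103.9 to 9.36 ± 3.57 normalized CPM (SD, 6 libraries each), a log2 difference of -3.10 ± 0.71 (SE; edgeR adjusted p = 0.0283), and *Egr2* from 12.2 ± 7.46 to 3.89 ± 1.55, a log2 difference of -1.64 ± 0.39 (SE; edgeR adjusted p = 0.0342). Both groups of *Fos* overlapped, between 11.2 and 285.0 normalized CPM in controls and 3.86 and 12.5 in iNICD libraries. *Jun* had the value nearest 0, -0.69 (SE 0.40, edgeR adjusted p = 0.405). In the 12 fits without 1 library, *Fos* ran from -3.33 to -2.06 and *Egr2* from -1.88 to -1.34. With replicate numbers as a block, *Fos* was at -2.31 by the titles and -2.38 by the descriptions, and was not called (edgeR adjusted p = 0.105 and 0.0852). *Egr2* was called under both (edgeR adjusted p = 0.00803 and 0.0154). The count of lower genes in the list was 2 and 4, where 136 of 13541 genes were lower under either numbering. DESeq2 and the exact test of edgeR each called 8 of the 11 as lower, as they did 3.29% and 2.06% of all tested genes. With *Noct*, over the 12 libraries and group means removed, the r of the 11 genes ran from 0.545 (*Egr3*) to 0.767 (*Btg2*). Without both replicates 6 these 2 values were 0.517 and 0.713. Of all tested genes, 1.96% had an r of at least 0.7 with *Noct* over the 12 libraries. A shared cause was not tested.

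Of 8 glucocorticoid-responsive genes, all tested, none was called, with 6 at an unadjusted p under 0.05 (17.4% of all tested genes) and a median log2 fold change of -1.02. DESeq2 called 1 of the 6 genes for which it gave an adjusted p as lower, and the exact test of edgeR 2 of 8. Of all tested genes these tests called 3.29% and 2.06% as lower. With sex as a covariate, with a block of title numbers, without control replicate 6 or without iNICD replicate 5, 1 of the 8 was called lower. In these fits 136 to 240 of 13541 genes were lower. Values ran from *Mt2* (-3.84, SE 1.26, edgeR adjusted p = 0.122) to *Dusp1* (0.00, SE 0.37). *Mt2* was at 296.8 normalized CPM in control replicate 5 and at 3.06 to 6.52 in the other controls, and without that library its log2 fold change was -0.26 and the median of the list -0.41.

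A difference of the genotype effect between the sexes was not detected for any of the 9 tested genes. The edgeR interaction term called 0% of all tested genes, with 501 of 13541 at an unadjusted p under 0.05, and DESeq2 called none of the 9. The lowest adjusted p among the 9 was 0.916, for *Per1*, with log2 fold changes of -0.63 (SE 0.30) in females and -0.16 (SE 0.44) in males. For *Noct* the difference, male minus female, was 0.18 and its SE 0.68 (edgeR adjusted p = 0.977). Without control replicate 6, which leaves control replicate 5 as the only male control, *Per3* was called (3.43, SE 0.91, edgeR adjusted p = 0.0382) together with 1636 genes in all.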

How the data were processed

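LA RNA was depleted of ribosomal RNA and sequenced as stranded single-end reads. The authors deposited raw read counts per gene name for each library, without normalization, beside a gene length in bases; submitters' notes name cutadapt, STAR 2.4.2a, Subread featureCounts and edgeR, and the strand setting of counting is not given in the sources used here. For 10 of the 10 genes the length equalled the exon union of GENCODE M21 (GRCm38). Groups, replicate numbers and sex are from the labels, and no column was left unassigned. The genes and the lists were chosen with earlier results of these data known.

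Genes over 1 CPM in at least 6 libraries (13541) were compared, iNICD against control, on TMM-normalized counts in edgeR 4.0.16 (R 4.3.3; quasi-likelihood test, two-sided), Benjamini-Hochberg adjustment over all tested genes and a threshold of 0.05; standard errors are from the F statistic. No 2 libraries of a group were copies (lowest chi-square per gene 14.2). Correlations used log2 CPM (prior count 2) less the group mean, in Python 3.11.15 with numpy 2.4.6 and scipy 1.17.1. Both steps were tested on simulated data. Named genes are the 10, called genes of the lists, the highest and lowest log2 fold change per list, and for *Noct*, *Arntl* and *Dbp* the 5 genes each of highest and of lowest r; *Cry2*, *Usp2*, *Tef*, *Egr3* and *Btg2* were named besides after their values were seen, and 1 gene of the lists is not reported here by name.

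The alternatives were DESeq2 1.42.0, edgeR's exact test, DESeq2 size factors, 2 other filters, a replicate block, sex as a covariate, each sex alone, each library left out, and for correlations Spearman's rho, another prior count, no TMM factors, group means kept, and sex or replicate means removed. Leaving out both replicates 6, alone or with iNICD replicate 5, was chosen after seeing the data.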

Additional observations from a re-analysis of the deposited data

Results flagged for a closer look

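Of 52 groups of 6 libraries examined gene by gene, 17 had 1 library set apart from the other 5 by a gap beyond Dixon's 95% limit, a limit that chance passes in about 1 of 20 groups of normally distributed values; on these untransformed CPM it was passed by 9.76% of the groups over all tested genes. Of the 17, 9 were a replicate 6. The genes share the 12 libraries, and those from the lists were named for their extreme fold changes, which single libraries can make, so the count of 17 is a description.

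In control replicate 6, *Arntl* was at 6.34 normalized CPM against 41.4 to 55.8 in the other controls, *Per2* at 82.0 against 30.2 to 44.0, *Per3* at 90.4 against 5.34 to 29.5, *Dbp* at 204.5 against 2.81 to 30.2, and *Ciart* at 13.7 against 0.553 to 2.05. In iNICD replicate 6, *Per3* was at 78.4 normalized CPM against 12.4 to 28.1 in the other iNICD libraries, *Dbp* at 196.2 against 6.70 to 51.9, *Ciart* at 8.94 against 0.447 to 3.47, and *Hlf* at 182.4 against 47.9 to 85.7.

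Control replicate 5 had *Fbxw11* at 133.3 normalized CPM against 80.2 to 99.8, *Pdk4* at 2497.2 against 174.5 to 512.5, and *Mt2* at 296.8 against 3.06 to 6.52. Control replicate 4 had *Fos* at 285.0 normalized CPM against 11.2 to 87.0, *Jun* at 238.0 against 49.7 to 102.8, and *Dusp1* at 263.4 against 49.5 to 117.2. iNICD replicate 5 had *Mt2* at 7.69 normalized CPM against 2.44 to 3.49, and *Egr2* at 6.85 against 2.42 to 3.87.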

How the results depend on the processing

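Over 24 alternatives *Noct* kept its direction (log2 fold change -2.86 to -2.29) and was called in 23; males alone called 0 of the 9 tested clock genes and *Noct* (*Noct* -2.45, edgeR adjusted p = 0.522). Of the other 8, none was called in any alternative; their signs held for *Clock*, *Npas2*, *Per1* and *Per2* and not for *Arntl*, *Per3*, *Nr1d1* or *Dbp*. Leaving out each library in turn gave 1 of the 9 called each time, 0 to 1 of the 26 clock list genes called (*Csnk1e*, without control replicate 5), 0 to 1 sex interaction (*Per3*, without control replicate 6), 14 to 22 of the 45 pairs with an absolute r of at least 0.7 (14 without control replicate 6) and 5 to 6 genes among the most variable 5.00%. Of the clock list genes, DESeq2 called 1, the exact test of edgeR 1, and the fits without both replicates 6, with or without iNICD replicate 5, 1 each (*Bhlhe41*). Pairs numbered 9 by Spearman's rho, 8 without both replicates 6 and 6 without iNICD replicate 5 besides, where 3 genes were among the most variable; there the r of *Arntl* with *Dbp* was -0.52 and with *Noct* 0.72, from few libraries. The causes were not tested.

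Libraries of the 2 groups share replicate numbers, which the labels do not tie to a litter or day. Same-numbered libraries deviated from their group means with r of -0.153 to 0.372 across all tested genes, the highest for number 6. The number was not taken as a pairing in the main fit. A block of title numbers lowered the SE of *Arntl* from 0.51 to 0.17 and that of *Dbp* from 1.09 to 0.56. For *Per2* it lowered the SE from 0.36 to 0.15, with a log2 fold change of -0.56 that was not called (edgeR adjusted p = 0.0854). With the replicate block, 1 of the 9 genes was called under either numbering (*Noct*), 332 genes were higher and 136 lower over all (285 and 136 with the numbers of the descriptions, which exchange 2 controls), against 377 and 181 without it, and 0 or, with the description numbers, 1 clock list gene was called (*Csnk1e*); with the means of the replicate block removed, the r of *Noct* with *Per1* was 0.75. Depth limits *Ciart*, which was under 1 normalized CPM in most libraries.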
